A study of Schizosaccharomyces pombe with 6 samples.

Results

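The genes described here are those of the mating pheromones of fission yeast, *Schizosaccharomyces pombe*, with their receptors and the proteins that export, degrade or respond to them: *mfm1*, *mfm2*, *mfm3*, *map1*, *map2*, *map3*, *mam1*, *mam2*, *mam3* and *sxa2*. The members were found by gene symbol in the platform annotation, which gave 12 probe sets for the 10 genes, out of 2937 named *S. pombe* probe sets on the array. *mfm1* and *mfm3* have 2 probe sets each, reported separately. Total RNA came from *rae1-167* cells in YE4S, a rich yeast extract medium, at 25°C (3 arrays) or at 36°C for 1 h (3 arrays), as 3 independent experiments with 1 GeneChip Yeast Genome 2.0 array per sample. All 6 samples carry *rae1-167*, a temperature-sensitive allele of the essential mRNA export factor gene *rae1*, in a strain background given as 972. No wild type array was used here, so an effect of the temperature shift and an effect of the mutation cannot be told apart. The labels give no mating type.

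Fission yeast cells are of the P or the M mating type. In nitrogen starvation the transcription factor Ste11 turns on the mating genes. P cells then secrete P-factor and M cells secrete M-factor, a farnesylated peptide. Each pheromone binds a G protein-coupled receptor on cells of the opposite type and signals through Ras1 and a MAP kinase cascade to arrest growth, orient growth towards the partner and raise the mating genes further. All *mfm* genes encode the same mature M-factor, so probe sets of one copy can take up RNA of another. Affymetrix marks probe sets with probes of lower specificity by the suffix _x_at, carried here by 1 probe set of *mfm1* and 1 of *mfm3*.

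Values are GCOS signal intensities on a linear scale as deposited, and changes are log2 fold changes, 36°C minus 25°C, from limma with Benjamini-Hochberg adjustment over the 2937 named probe sets. A change was called at an adjusted p under 0.05. The median log2 fold change of all these probe sets was -0.66, so most of the named *S. pombe* probe sets were lower at 36°C. Of the 2937 probe sets, 63.9% were called, 12.2% higher and 51.8% lower at 36°C. As background on each array served the signal that 90% of the *S. cerevisiae* probe sets stayed below, between 14.0 and 21.3. All 12 member probe sets were above it on all 6 arrays. Of the 2937 named probe sets, 2918 were above it on every array of at least 1 temperature. Of the 12, 7 were called higher at 36°C, 4 were called lower and 1 was not called. All 7 that were higher and 2 of the 4 that were lower changed at least 2-fold, beside 7.32% and 39.7% of all probe sets. The 36°C arrays lay wholly above the 25°C arrays for 7 members and wholly below them for 4, beside 15.1% and 56.3% of all probe sets. Replicate 1 at 36°C was the lowest 36°C array for 11 of the 12 members and for 65.0% of all named probe sets. The median *S. pombe* signal was 1939.4, 2434.6 and 2617.0 at 25°C in replicates 1, 2 and 3. At 36°C it was 1145.7, 1395.1 and 1578.5, so replicate 1 was lowest at both temperatures. The log2 ratio of 5′ to 3′ signal, a sign of RNA quality, was lower on every 36°C array than on every 25°C array for 3 of 7 *S. pombe* control genes, and the part of RNA quality in the changes was not tested. In these bulk samples, fewer cells of a type and less RNA per cell cannot be told apart.

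**Figure D1:**
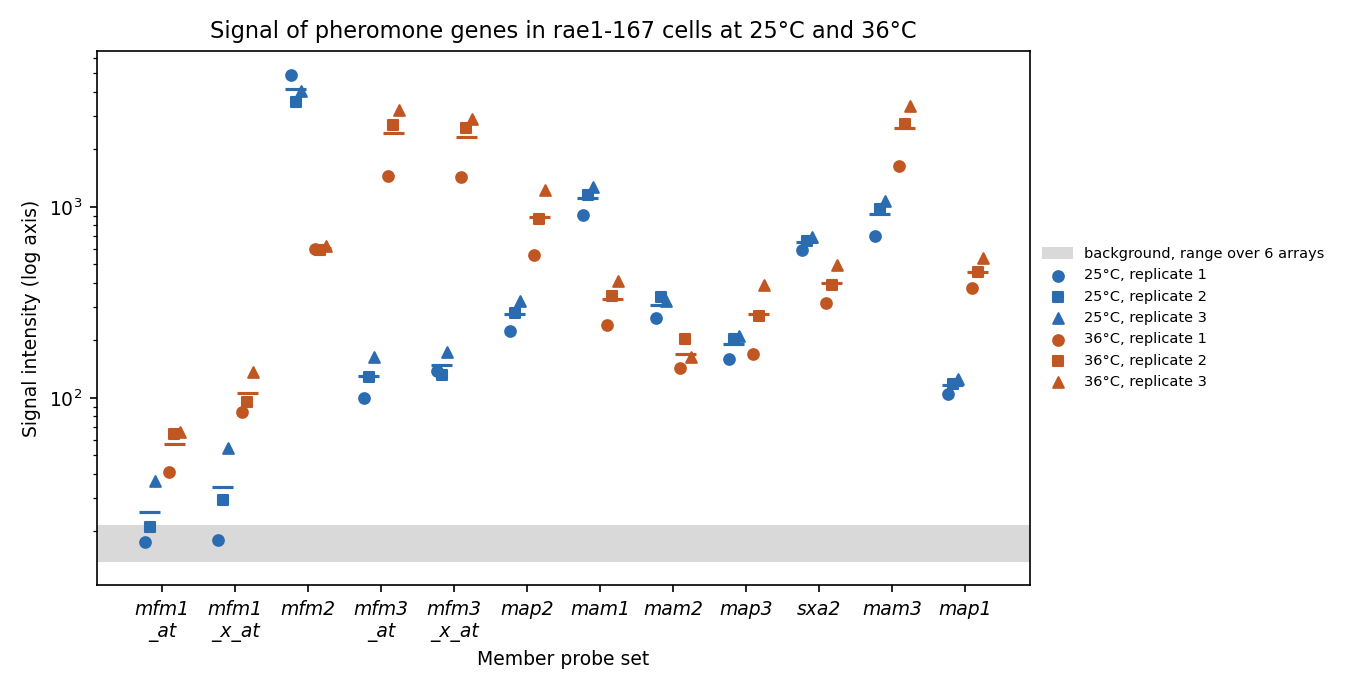
Signal intensity (log axis) of each of the 12 member probe sets on the 25°C arrays (blue) and 36°C arrays (orange). The symbol shape marks the replicate, horizontal bars are means of 3 arrays, and the grey band is the range of the background over the 6 arrays. For *mfm2*, *mam1*, *mam2* and *sxa2* every 36°C array lies below every 25°C array, for *map3* the temperatures overlap, and for the other members every 36°C array lies above.

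The M-factor precursor genes moved apart at 36°C. *mfm3* rose more than 10-fold, *mfm2* fell 6.80-fold, and *mfm1*, whose signal lay nearest to background, rose about 2- to 3-fold.

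*mfm3* (SPBPJ4664.03) gave 99.6, 127.9 and 164.6 at 25°C in replicates 1, 2 and 3, and 1445.8, 2682.2 and 3210.6 at 36°C, on its probe set without the suffix. The temperatures did not overlap, and each 36°C array was 14.5-, 21.0- and 19.5-fold above the 25°C array of the same replicate number. This log2 fold change of 4.18 (SE 0.34, limma adjusted p = 1.1e-04) was the 16th largest increase among the 2937 probe sets. The second probe set of *mfm3*, the _x_at one, gave 138.0, 132.3 and 173.9 at 25°C and 1435.0, 2590.9 and 2890.9 at 36°C. It rose by 3.91 on the log2 scale (SE 0.29, limma adjusted p = 7.8e-05), the 19th largest increase. Replicate 1 at 36°C stood lowest on both probe sets and was still above all 25°C arrays.

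*mfm2* (SPAC513.03) moved the other way. Its probe set gave 4891.1, 3535.2 and 4024.2 at 25°C and 603.1, 591.5 and 620.7 at 36°C. The 36°C arrays were alike, with an SD of 14.7 around a mean of 605, against 687 around a mean of 4150 at 25°C. The signal was 8.11-, 5.98- and 6.48-fold lower at 36°C by replicate number. Its log2 fold change was -2.77 (SE 0.15, limma adjusted p = 2.9e-05), the 221st largest decrease of the 2937.

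*mfm1* (SPAPB8E5.05) gave 17.6, 21.0 and 36.9 at 25°C and 40.7, 64.9 and 66.4 at 36°C on its probe set without the suffix. The _x_at probe set gave 18.0, 29.1 and 54.8 at 25°C and 84.6, 95.2 and 136.5 at 36°C. On both probe sets the 25°C signals began just above background (15.8 on the array of replicate 1), and no 36°C array fell within the 25°C range. *mfm1* rose by 1.23 on the log2 scale (SE 0.33, limma adjusted p = 0.018) on the former and by 1.75 (SE 0.42, adjusted p = 0.011) on the _x_at probe set. After 32 was added to each signal, which damps changes of dim probe sets, these values became 0.65 and 1.08. The call of the probe set without the suffix was lost without replicate 2 at 25°C (adjusted p = 0.060 from limma), without replicate 2 at 36°C (adjusted p = 0.065) and without replicate 3 at 36°C (adjusted p = 0.052). How much RNA of *mfm3* or *mfm2* bound the *mfm1* probe sets was not tested.

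Whether the copies differed in their change was tested on the log2 difference between 2 *mfm* probe sets within each array, with an exact two-sided permutation test of 3 arrays against 3. Probe sets can bind their RNA unequally, so only the change of this difference between the temperatures was read. This design cannot give a p below 0.10, so none of the 10 pairs could pass 0.05. The log2 difference of *mfm2* minus *mfm3* (probe set without the suffix) came to 5.62, 4.79 and 4.61 at 25°C and -1.26, -2.18 and -2.37 at 36°C. It thus changed by -6.94 (SE 0.46, exact permutation p = 0.10, adjusted p = 0.11 over the 10 pairs). For the pair with the other *mfm3* probe set the change was -6.67 (SE 0.36). *mfm1* on its _x_at probe set changed by 4.52 (SE 0.58) relative to *mfm2* and by -2.43 (SE 0.33) relative to *mfm3* on the probe set without the suffix. In 9 of the 10 pairs the temperatures did not overlap, the exception being the 2 probe sets of *mfm1* with each other (a change of -0.52, SE 0.23, exact permutation p = 0.20). The 2 probe sets of *mfm3* did not overlap either, but their difference changed by 0.27 (SE 0.14).

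*map2* (SPCC1795.06), which encodes the precursor of P-factor, rose in every experiment. Its signals were 224.5, 278.0 and 320.1 at 25°C and 556.9, 860.1 and 1220.4 at 36°C. The 36°C arrays spread more widely, from 2.48-fold above the 25°C array in replicate 1 to 3.81-fold in replicate 3. The rise was 1.62 on the log2 scale (SE 0.31, limma adjusted p = 0.0040).

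Of the receptors, with the signals as deposited, the one for P-factor fell and the one for M-factor did not pass the test. Both results depended on the scaling. *mam2* (SPAC11H11.04) encodes the P-factor receptor of M cells, and its signals were 261.9, 335.4 and 321.5 at 25°C and 143.6, 204.5 and 163.1 at 36°C. Every 36°C array lay below every 25°C array, and *mam2* fell by 0.85 on the log2 scale (SE 0.18, limma adjusted p = 0.0060). Relative to the median of all probe sets this was a difference of -0.19. After centring *mam2* was at -0.089 and not called (limma adjusted p = 0.64), and after quantile normalization the sign turned, to 0.61 (adjusted p = 0.011). *map3* (SPAC3F10.10C) encodes the M-factor receptor of P cells, and its signals were 159.6, 203.1 and 209.8 at 25°C and 169.8, 268.9 and 388.0 at 36°C. The groups overlapped only through replicate 1 at 36°C. Its log2 fold change was 0.46 (95% interval -0.30 to 1.22, limma adjusted p = 0.24). Without replicate 1 at 36°C it was 0.77 (adjusted p = 0.020), and with the arrays centred on their medians it was 1.22 (adjusted p = 5.6e-04). The difference between the receptors was not tested.

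*mam1* (SPBC25B2.02C) encodes the ABC transporter that exports M-factor. Its signals were 909.3, 1154.5 and 1274.0 at 25°C and 240.8, 339.5 and 410.8 at 36°C. The arrays of the 2 temperatures were far apart, with folds of 3.78, 3.40 and 3.10 between them by replicate number. *mam1* fell by 1.77 on the log2 scale (SE 0.24, limma adjusted p = 8.6e-04). The fall was also called after centring on the median (-1.01) and after quantile normalization, where it was smaller (-0.35, adjusted p = 0.022).

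*sxa2* (SPAC1296.03C) encodes a secreted carboxypeptidase of M cells that degrades P-factor. Its signals were 593.2, 663.9 and 695.3 at 25°C and 313.6, 387.9 and 498.6 at 36°C, and the temperatures did not overlap. The fall of 0.72 on the log2 scale (SE 0.19, limma adjusted p = 0.016) differed by -0.06 from the median of all probe sets. The call was lost without replicate 2 at 25°C (adjusted p = 0.055), replicate 3 at 25°C (adjusted p = 0.059) or replicate 2 at 36°C (adjusted p = 0.052). After centring the value was 0.039 (adjusted p = 0.81 from limma), and after quantile normalization it was 0.77 (adjusted p = 0.0013), so the direction of *sxa2* depends on the scaling.

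*mam3* (SPAP11E10.02C) encodes the cell surface agglutinin of M cells, by which partners adhere. Its signals were 703.8, 973.5 and 1067.6 at 25°C and 1632.6, 2696.1 and 3381.9 at 36°C. All 36°C arrays were higher, by 2.32-, 2.77- and 3.17-fold by replicate number. *mam3* rose by 1.45 on the log2 scale (SE 0.31, limma adjusted p = 0.0065).

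*map1* (SPAC11E3.06) encodes a MADS-box protein that turns on the genes of P cells. Its signals were 104.8, 118.2 and 125.9 at 25°C and 377.2, 458.2 and 538.4 at 36°C. The spread within each temperature was small beside the gap between them. The increase of 1.97 on the log2 scale (SE 0.16, limma adjusted p = 1.2e-04) was the 88th largest increase of the 2937.

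**Figure D2:**
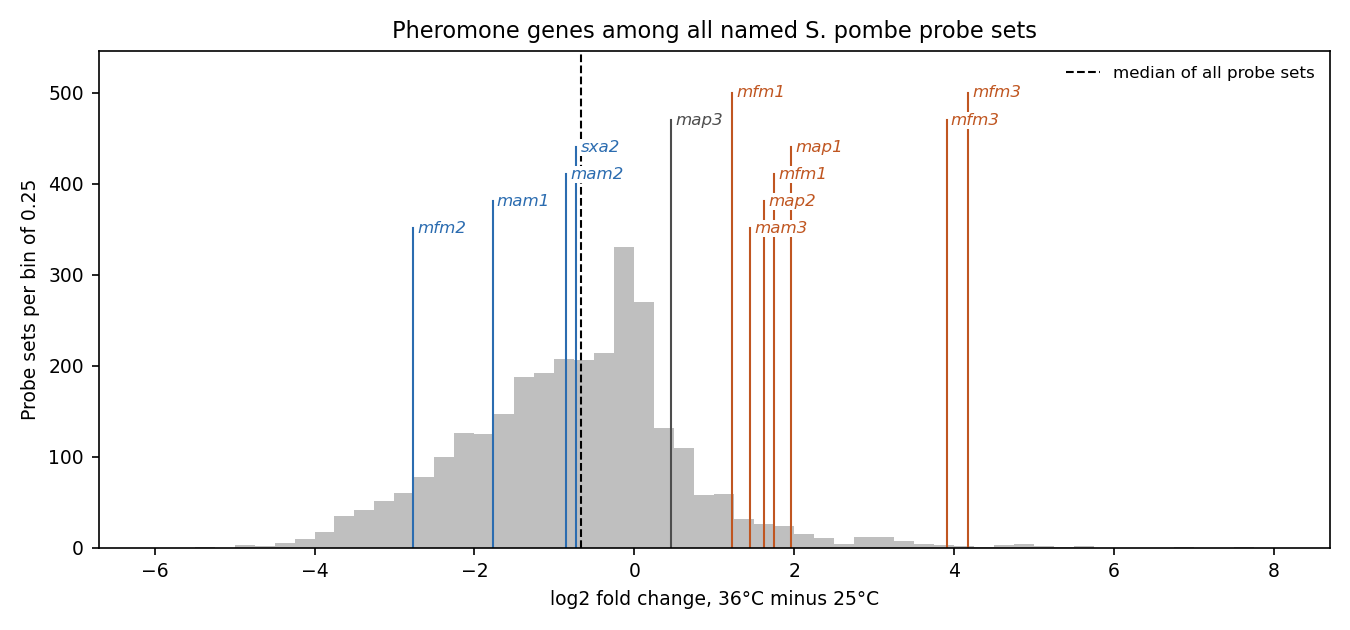
Histogram of log2 fold changes (36°C minus 25°C) of the 2937 named *S. pombe* probe sets in bins of 0.25, with the 12 member probe sets as vertical lines (orange called higher, blue called lower, grey not called) whose heights carry no value. The dashed line is the median of all probe sets, -0.66, close to *sxa2* and *mam2*.

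A global scaling shifts all probe sets of an array together, so the members were also read against the rest of the array. The median member log2 fold change was 1.34, against -0.66 for all named probe sets, and this difference is a description with no test. *mfm1* and *mfm3* count with 2 probe sets each in the member median, all of them higher. With the probe sets of a gene averaged, 5 of the 10 member genes were called higher and 4 lower. Over the whole array 355 of the 2917 averaged entries were then higher and 1514 lower. Centring each array on its median moved the median of all probe sets to 0.10, and quantile normalization moved it to -0.02. Quantile normalization did not move all members alike. It took *sxa2* from -0.72 to 0.77, but *mfm1* on its probe set without the suffix only from 1.23 to 1.35. Under centring 8 member probe sets were called higher and 2 lower, beside 39.7% and 34.2% of all probe sets. Under quantile normalization 10 were called higher and 2 lower, beside 30.1% and 33.8%. The 2 called lower in each were *mfm2* and *mam1*. *mfm1*, *mfm3*, *map1*, *map2* and *mam3* were called higher under both, and also when the arrays were scaled to the BioB hybridisation controls.

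**Figure D3:**
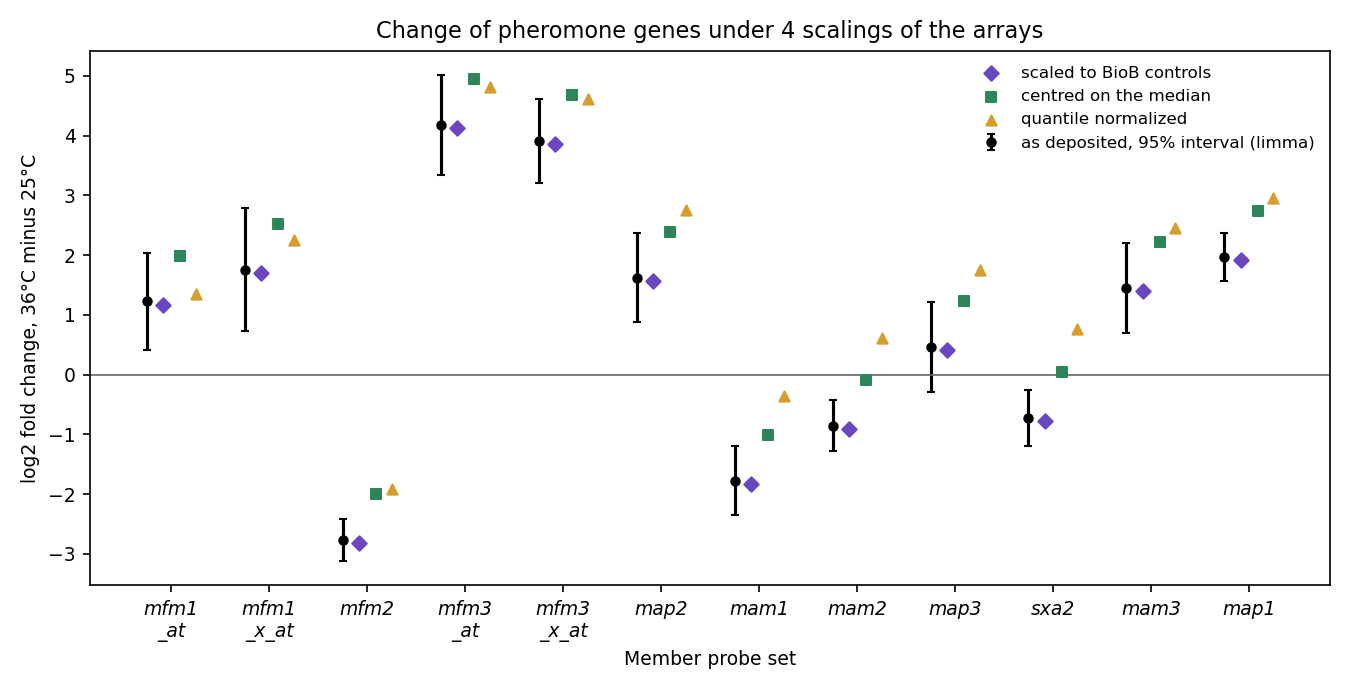
Log2 fold change (36°C minus 25°C) of each member probe set as deposited (black, with the 95% interval from limma), scaled to the BioB controls (purple), centred on the array median (green) and quantile normalized (yellow). *mam2* turns from -0.85 to 0.61 and *sxa2* from -0.72 to 0.77 under quantile normalization, and *mfm2* and *mam1* stay below 0 in all 4.

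The genes of M cells moved in both directions. Of the 9 probe sets of M-cell genes, 5 were higher and 4 lower, beside 12.2% and 51.8% of all probe sets. Their median log2 fold change was 1.23. They belong to the *mfm* genes, *mam1*, *mam2*, *mam3* and *sxa2*, and *mfm1* and *mfm3*, both higher, count with 2 probe sets each. By gene, *mfm1*, *mfm3* and *mam3* were higher, and *mfm2*, *mam1*, *mam2* and *sxa2* were lower. Centring left 5 probe sets higher and 2 lower, beside 39.7% and 34.2% of all probe sets. Quantile normalization gave 7 and 2, beside 30.1% and 33.8%. Of the 4 probe sets of P-cell genes (*map2*, *map3*, *map4* and *sxa1*), 2 were higher and 2 not called, with a median of 0.80. After centring all 4 were higher, beside 39.7% of all probe sets, and after quantile normalization 3 were, beside 30.1%. *map4*, the agglutinin gene of P cells, gave 755.2, 995.2 and 1083.3 at 25°C and 1096.8, 2871.0 and 2732.5 at 36°C. Its log2 fold change of 1.13 (SE 0.40, limma adjusted p = 0.045) was not called when any array other than replicate 1 at 36°C was left out (adjusted p from 0.084 to 0.14) or when the arrays were scaled to BioB (1.08, adjusted p = 0.053). *sxa1*, an aspartyl protease gene, had a log2 fold change of -0.34 (adjusted p = 0.15), or 0.43 after centring (adjusted p = 0.013). The marker genes of both mating types with a named probe set were thus above background on all arrays. No probe set was named for the *mat1* genes, which define the mating type.

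Of 5 probe sets for M-factor maturation and export or P-factor processing, 4 fell and 1 rose, beside 51.8% and 12.2% of all probe sets. Their median log2 fold change was -1.77, beside -0.66 for all probe sets. It was -1.01 after centring (0.10 for all) and -0.61 after quantile normalization (-0.02 for all). Besides *mam1*, *cpp1*, the beta subunit of the farnesyltransferase, fell from 2081.5, 2693.7 and 2787.6 at 25°C to 336.9, 385.9 and 437.8 at 36°C. Its log2 fold change was -2.70 (SE 0.17, limma adjusted p = 4.2e-05). *mam4*, which encodes the methyltransferase of farnesylated M-factor, fell by 1.84 on the log2 scale (SE 0.12, adjusted p = 5.7e-05). *krp1*, the protease gene that processes the P-factor precursor, changed by -1.67 on the log2 scale (SE 0.45, adjusted p = 0.017), and its call was lost without replicate 2 (adjusted p = 0.057) or replicate 3 (adjusted p = 0.065) at 25°C. After quantile normalization *krp1* was at -0.61 and not called (adjusted p = 0.098). *cwp1*, the alpha subunit gene of the farnesyltransferase, had 0.66 (SE 0.18, adjusted p = 0.019), with the call lost without replicate 1 (adjusted p = 0.051) or replicate 2 (adjusted p = 0.068) at 25°C. The subunits of this enzyme thus lay on opposite sides of 0, a difference that was not tested.

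Of 14 pheromone signalling genes, 4 rose, 9 fell and 1 was not called, beside 12.2% of all probe sets higher and 51.8% lower. Their median was -0.79, beside -0.66 for all probe sets. *scd2*, which encodes a scaffold of the Cdc42 GTPase, rose from 892.1, 1464.4 and 1548.8 to 7594.4, 10044.2 and 10729.3, an increase of 2.89 on the log2 scale (SE 0.26). The genes for the MAP kinase kinase kinase *byr2* (1.53) and its adaptor *ste4* (1.07) also rose. *shk1*, a kinase activated by Cdc42, fell from 1156.2, 2107.4 and 2125.5 to 55.1, 178.1 and 230.2, or -3.72 on the log2 scale (SE 0.57). *ras1* (-2.02) and the Cdc42 exchange factor gene *scd1* (-1.75) fell with it. The counts of this list moved with the scaling. Centring left 4 higher and 6 lower (median -0.022), beside 39.7% and 34.2% of all probe sets. Quantile normalization gave 5 higher and 4 lower (median 0.049), beside 30.1% and 33.8%. With the replicate number as a block 4 were higher and 10 lower, beside 469 and 1727 of the 2937 probe sets.

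Of 9 genes of cell and nuclear fusion, 4 rose and 5 fell, beside 12.2% and 51.8% of all probe sets. Their median was -1.77, beside -0.66 for all probe sets. It was -1.01 after centring (0.10 for all) and -0.46 after quantile normalization (-0.02 for all), with the same counts. *tht2*, which acts in nuclear fusion, rose from 47.0, 39.1 and 47.7 to 626.2, 321.6 and 472.3, an increase of 3.36 on the log2 scale (SE 0.26). *dni1* (2.85) and *dni2* (2.01), which act in cell fusion, rose as well. *klp2*, a kinesin gene of nuclear fusion, fell by 2.54 on the log2 scale, and *cfr1* (-2.12) and *prm1* (-2.04), genes of cell fusion, also fell.

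Of 18 genes listed under Ste11 and its regulators, 6 rose, 4 fell and 8 were not called. Of all probe sets 12.2% were higher and 51.8% lower, and the list median was 0.01. The list also holds genes with other roles, among them *map1* and *rep1*. *ste11* itself gave 891.0, 1028.5 and 1275.8 at 25°C and 1387.6, 2534.2 and 2801.0 at 36°C. Its log2 fold change was 1.02 (SE 0.30, limma adjusted p = 0.023), and the call was lost without replicate 1 (adjusted p = 0.068) or 2 (adjusted p = 0.067) at 25°C and without replicate 2 (adjusted p = 0.081) or 3 (adjusted p = 0.064) at 36°C. *rep1*, a regulator of the genes of premeiotic DNA synthesis, rose by 3.45 on the log2 scale (SE 0.31) and *map1* by 1.97. *pcr1*, the partner of the transcription factor Atf1, was 2.64-fold higher (adjusted p = 0.034), which was not called when any array other than replicate 1 at 36°C was left out (adjusted p from 0.057 to 0.11). *tor2*, the gene of a TOR kinase that holds back mating in rich medium, fell by 1.85 on the log2 scale (SE 0.32). *zfs1* (-1.29) lost its call without replicate 2 (adjusted p = 0.079) or 3 (adjusted p = 0.085) at 25°C. It was not called after centring (-0.53, adjusted p = 0.081) or quantile normalization (-0.44, adjusted p = 0.14) either. *moc3* (-0.75) lost it without replicate 2 (adjusted p = 0.12) or 3 (adjusted p = 0.12) at 25°C and without replicate 1 (adjusted p = 0.063) or 2 (adjusted p = 0.078) at 36°C. *moc3* came to 0.012 after centring (adjusted p = 0.94) and to -0.28 after quantile normalization (adjusted p = 0.085). Of the 18 genes, 10 were higher and 1 lower after centring, beside 39.7% and 34.2% of all probe sets. After quantile normalization 11 were higher and 1 lower, beside 30.1% and 33.8%. The replicate block gave 7 higher and 6 lower, beside 469 and 1727 of the 2937 probe sets.

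**Figure D4:**
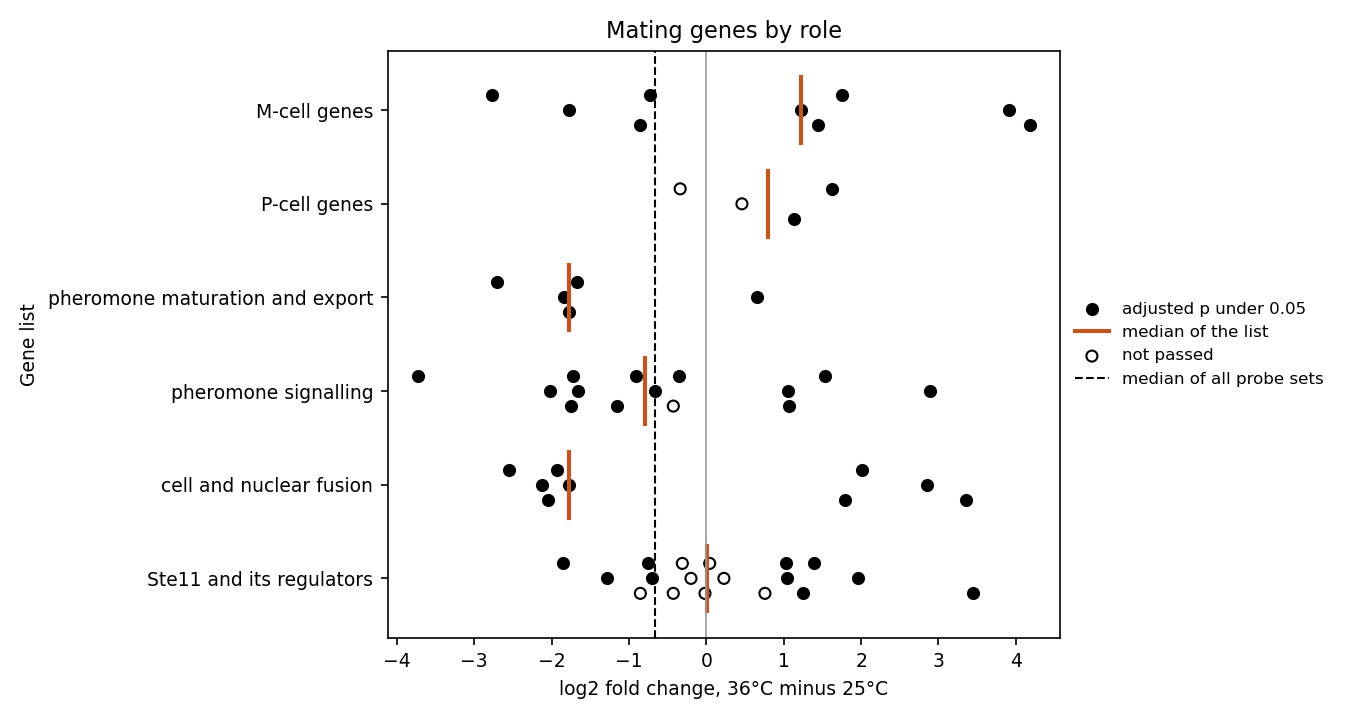
Log2 fold change (36°C minus 25°C) of each probe set of 6 lists of mating genes. Filled circles passed an adjusted p under 0.05 and open circles did not, orange bars are list medians, and the dashed line is the median of all named probe sets (-0.66). Vertical offsets within a list carry no value, and *mam1* stands in both its lists. The fusion genes leave a gap around 0, with 5 below and 4 above.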

How the data were processed

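The deposited signal intensities (1 linear value per probe set and array, 6 arrays) were made by the authors in GCOS, with its default settings and a global scaling whose target is not given in the sources used here. Scaling decides directions near the array median. Array levels still differed between the temperatures. Trimmed mean signals were 1239.8, 1419.3 and 1518.7 at 25°C in replicates 1, 2 and 3. At 36°C they were 955.3, 1094.7 and 1173.3. How far these levels set the median change of all named probe sets was not tested. The table carries no detection calls, and 4 values of 0 were raised to a floor of 1 with all values below it. Probe sets were named from the platform annotation. *S. pombe* genes were matched to RefSeq by gene ID, leaving out 5177 unnamed probe sets, 2601 of *S. cerevisiae* and 213 controls. 20 of the 2937 probe sets name several genes.

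The main test was limma 3.58.1 under R 4.3.3 on log2 signals (lmFit, eBayes, two-sided, no block). Python 3.11.15, pandas 2.3.3, numpy 2.4.6, scipy 1.17.1 and matplotlib 3.10.9 were used. The limma script was run on simulated data with far fewer changed probe sets than here, rising or falling at random. That run checks the code and not the calls made on these arrays. Precision is limited by the number of arrays.

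Members and lists were chosen with earlier results of these data known. Genes named are all members and, per list, the 3 called probe sets with the largest change in each direction. *sxa1*, *krp1* and *ste11* were added after their values were seen. Of the genes listed, *ste24* and the *mat1* genes had no named probe set, and *pat1* is listed as *ran1*.

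Arrays with the same replicate number deviated together from their temperature's mean (r = 0.47, 0.38 and 0.29 for numbers 1, 2 and 3). The numbers, which mark 3 independent experiments, were taken to pair the arrays only for the folds by replicate number and the replicate block. The main limma test and the permutation test of 3 arrays against 3 were not paired. Replicate 2 at 25°C correlated more with replicate 3 at 36°C (0.44). Alternatives were 3 other scalings, 32 added to each signal, dim or shared-probe sets left out, probe sets of a gene averaged, all probe sets tested together, another variance model, the replicate block and each array left out.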

Additional observations from a re-analysis of the deposited data

How the results depend on the processing

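Over all named probe sets, 1165 were higher and 1005 lower after centring, 884 and 993 after quantile normalization, and 574 and 2302 with all 10715 probe sets other than controls tested, against 357 and 1520. Of the members, 7 were higher and 4 lower, against 8 and 2 after centring and 10 and 2 with quantile normalization. Of the 46 other probe sets on the lists, 15 were higher and 21 lower, and 12 were lower after quantile normalization. *map3* was called after centring (1.22) and quantile normalization (1.75), *mam2* was not called after centring (-0.089) and turned to 0.61 after quantile normalization, and *sxa2* turned to 0.039 and 0.77 under the same settings. With all 10715 probe sets tested, *mfm1* on its probe set without the _x_at suffix (1.23, adjusted p = 0.066 from limma) and *sxa2* (-0.72, adjusted p = 0.067) were not called, nor were *krp1*, *cwp1*, *map4*, *moc3*, *pcr1*, *ste11* and *zfs1*. Centring turned *moc3* to 0.012 and *sxa1* to 0.43. With 1 array left out, *mfm1* on its probe set without the _x_at suffix ranged from 1.01 to 1.54, *map3* from 0.17 to 0.77 and *sxa2* from -0.90 to -0.56. Member counts then ranged from 6 to 8 higher and from 3 to 4 lower, and all probe sets from 277 to 457 higher and from 1308 to 1552 lower. With the replicate block 469 of all named probe sets were higher and 1727 lower. The block changed no member's call (*map3* adjusted p = 0.064 from limma), and *sxa1* (-0.34) passed with it (adjusted p = 0.019). The change of each *mfm* pair kept its sign with 32 added and without each array, and the block cannot move these values. Signals of *mfm1* near background limit its folds.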
